A study of Homo sapiens with 4 samples.

Results

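The PAX genes encode 9 transcription factors that share a DNA-binding paired domain, and they were read from the 25690 gene rows of the count table by their symbols, PAX1 to PAX9. The table comes from day 7 of a culture of H9, a line of human embryonic stem cells, that the series calls non-neural ectoderm. WT cells (2 libraries) were compared with cells that carry the genotype label TFAP2A knockout (2 libraries), and the labels give no clone, guide or other agent. The titles of the knockout libraries name TFAP2C instead, so that group is called the knockout-labelled libraries throughout. RNA was selected for polyA and sequenced, and the labels do not say whether libraries of 1 genotype were separate cultures, so p-values reflect only how far these libraries spread, which may be technical.

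PAX proteins fall into 4 subgroups by their domains. PAX1 and PAX9 carry the paired domain without a homeodomain and act in somites, pharyngeal pouches and teeth. PAX2, PAX5 and PAX8 add a partial homeodomain and act at the midbrain-hindbrain boundary and in ear, kidney, thyroid and B lymphocytes. PAX3 and PAX7 mark the neural plate border, neural crest, dorsal neural tube and muscle progenitors, and PAX4 and PAX6, with a full homeodomain, act in pancreas and, for PAX6, in eye and forebrain. At the border of the neural plate, where epidermis, placodes, crest and neural tissue part, PAX genes are among the first to divide the field, and AP-2 factors such as TFAP2A act beside them.

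The subgroups were visible only in part in the coding sequences of GENCODE release 29. Pairs within a subgroup (6 pairs) were 66.4% to 77.8% identical over the best local alignment of their longest coding sequences, with a median of 74.5%, and the 30 pairs across subgroups were 60.1% to 72.4% identical, with a median of 67.9%. The ranges overlapped. PAX4 and PAX6, at 66.4%, were less alike than PAX3 and PAX6 at 69.6%. Identical stretches were short. The longest run of bases shared by each of 3 pairs is printed here because a read that lies inside it cannot be assigned to either member by its bases.
PAX3 and PAX7: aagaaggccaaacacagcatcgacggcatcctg
PAX1 and PAX9: cgctgccctacaaccacatctac
PAX2 and PAX8: agaatcatccggaccaaagt
The PAX3 and PAX7 run of 33 bases was the longest of all 36 pairs, followed by 23 bases in PAX1 and PAX9 and 21 in PAX5 and PAX8. PAX2 and PAX8 shared 20 bases, and the read length was not given in the sources used here.

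For PAX2, PAX6 and PAX7, the members whose levels differed between genotypes, the 250 bases upstream of annotated starts are given from RefSeq (GRCh38.p14). All are shown for PAX2 (2 starts) and PAX7 (1 start), and of the 9 starts of PAX6 only the 2 with the motif described next. In PAX6 the capitals mark the letters GCCNNNGGC, a consensus that AP-2 proteins are known to bind and that reads the same on both strands. In PAX7 they mark a tandem run of CCT, searched in any frame on both strands.
PAX2 first start, chr10:100735146-100735395, plus strand: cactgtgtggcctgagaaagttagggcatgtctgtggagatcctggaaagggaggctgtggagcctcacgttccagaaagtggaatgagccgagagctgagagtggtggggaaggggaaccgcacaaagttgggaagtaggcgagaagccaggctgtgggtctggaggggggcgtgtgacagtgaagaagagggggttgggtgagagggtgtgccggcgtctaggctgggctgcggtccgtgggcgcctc
PAX2 second start, chr10:100745332-100745581, plus strand: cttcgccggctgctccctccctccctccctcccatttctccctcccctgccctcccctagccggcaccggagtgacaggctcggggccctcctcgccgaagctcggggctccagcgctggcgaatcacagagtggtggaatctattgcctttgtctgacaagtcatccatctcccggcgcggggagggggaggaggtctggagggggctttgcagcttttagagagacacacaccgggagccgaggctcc
PAX6 second start, chr11:31812721-31812970, minus strand: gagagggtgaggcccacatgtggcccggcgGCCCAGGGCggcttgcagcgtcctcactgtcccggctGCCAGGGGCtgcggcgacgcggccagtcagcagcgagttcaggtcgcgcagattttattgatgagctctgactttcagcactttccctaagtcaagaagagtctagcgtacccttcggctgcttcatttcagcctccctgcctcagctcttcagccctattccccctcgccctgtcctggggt
PAX6 seventh start, chr11:31805042-31805291, minus strand: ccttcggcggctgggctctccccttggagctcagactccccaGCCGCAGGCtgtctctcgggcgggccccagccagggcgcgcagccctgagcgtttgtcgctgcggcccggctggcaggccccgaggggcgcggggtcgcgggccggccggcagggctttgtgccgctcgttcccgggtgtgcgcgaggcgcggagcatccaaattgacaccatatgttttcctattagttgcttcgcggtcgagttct
PAX7, chr1:18630596-18630845, plus strand: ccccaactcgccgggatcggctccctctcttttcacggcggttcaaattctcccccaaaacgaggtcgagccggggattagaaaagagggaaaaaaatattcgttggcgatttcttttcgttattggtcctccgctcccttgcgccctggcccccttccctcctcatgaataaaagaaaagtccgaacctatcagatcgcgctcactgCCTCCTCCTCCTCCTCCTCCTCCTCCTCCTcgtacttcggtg
GCCNNNGGC stood in 2 of the 19 upstream windows of 8 PAX genes (all but PAX1), both of them PAX6 windows, with 3 matches in all. Among 35116 upstream windows of all genes, 19.8% held it, and 34.4% of the 16148 windows with at least 60% G and C. Neither PAX2 window held it, at 61.6% and 66.0% G and C, nor did the PAX7 window, at 54.8%, and no match says only that these letters are not in these 250 bases. The run of 10 CCT units in PAX7, from 42 to 13 bases before the start, was the only one of that length among the 35116 windows. That repeat was picked after the sequence had been seen.

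The PAX family changed its make-up between genotypes. PAX7 was the most abundant member per length in WT and fell 8.89-fold in the knockout-labelled libraries, while PAX2 rose 8.03-fold and PAX6 rose 2.62-fold. Per length of the longest transcript, PAX2 was the most abundant member there. By CPM alone, PAX6 was above PAX2 in knockout replicate 1 (7.29 against 6.99) and below it in replicate 2 (5.75 against 7.14). Only 3 of the 9 genes, PAX2, PAX6 and PAX7, had enough counts to be tested, and each passed. Over all 15643 genes tested, 44.2% passed (edgeR's quasi-likelihood test, Benjamini-Hochberg adjusted p under 0.05), 21.9% higher and 22.3% lower. A rise at least as large as that of PAX2 was seen in 0.563% of the genes tested, one at least as large as that of PAX6 in 2.73%, and a fall at least as large as that of PAX7 in 1.12%.

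**Figure D1:**
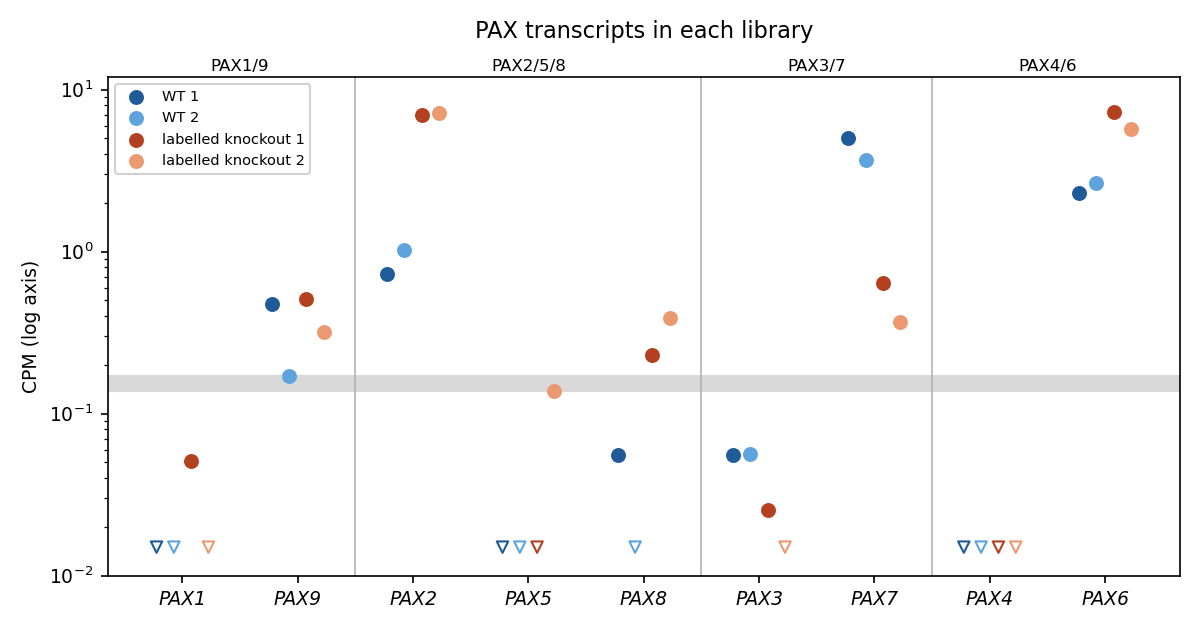
CPM of each PAX gene in each of the 4 libraries on a log axis, grouped by subgroup, with 1 dot per library. Open triangles at the bottom are libraries with 0 counts, and the grey band marks the 3 counts per library (0.137 to 0.170 CPM) that a count of 0 allows. PAX2 and PAX6 were higher and PAX7 lower in both knockout-labelled libraries, and the other 6 genes were at 0.512 CPM or less.

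PAX2 (chromosome 10, 102505468 to 102589698, plus strand, hg19), a regulator of the midbrain-hindbrain boundary, otic vesicle and kidney, had 13 and 18 counts in the WT libraries and 136.5 and 156 in those labelled knockout. In CPM, counts scaled to library size, these were 0.727 and 1.02 against 6.99 and 7.14. The genotypes did not overlap, as held for 73.1% of all genes tested, and the knockout-labelled pair lay close together. The log2 fold change was 3.01 (SE 0.24, edgeR adjusted p = 1.23e-07).

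PAX5 and PAX8, the other members of its subgroup, were at or near the detection limit. PAX8 (chromosome 2, 113973574 to 114036498, minus strand), a thyroid and kidney factor that is also among the earliest otic genes, had 1 and 0 counts in WT and 4.5 and 8.5 in the knockout-labelled libraries. The ratio of summed counts was 11.2, with an exact (Clopper-Pearson) 95% counting interval of 1.68 to 475. Both libraries labelled knockout were above both WT libraries, but PAX8 failed the low-count filter, and in a fit without that filter its adjusted p was 0.0614 (edgeR). PAX8-AS1, which overlaps PAX8 on the other strand, held 0.5, 1, 0 and 2.5 counts in the same order of libraries. Strand use in the counting was not given in the sources used here, and reads of the overlap cannot be assigned to either gene. PAX5 (chromosome 9), the B lymphocyte commitment factor, had 3 counts in a single knockout-labelled library and 0 in the other 3 libraries, which is at the limit of 3 counts.

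PAX6 (chromosome 11, 31806340 to 31832901, minus strand, hg19), the eye and forebrain regulator, had 41 and 47 counts in WT and 142.5 and 125.5 in the knockout-labelled libraries. In CPM this was 2.29 and 2.66 against 7.29 and 5.75. The genotypes did not overlap, and the knockout-labelled libraries were farther apart than those of WT. The log2 fold change was 1.39 (SE 0.21, edgeR adjusted p = 7.33e-05). PAX4 (chromosome 7), its partner in the pancreas, had no count in any library, where a count of 0 allows at most 0.137 to 0.170 CPM.

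PAX7 (chromosome 1, 18957500 to 19075360, plus strand, hg19), a neural plate border and crest factor, ran the other way, with 89.5 and 65 counts in WT against 12.5 and 8 in the knockout-labelled libraries. In CPM these were 5.0 and 3.68 against 0.640 and 0.366. The genotypes did not overlap, and PAX7 was still detected in both knockout-labelled libraries. The log2 fold change was -3.15 (SE 0.32, edgeR adjusted p = 1.79e-06). Only 1 of the knockout-labelled libraries held more than 10 counts, so PAX7 entered the test through its WT libraries. In bulk RNA, fewer cells with PAX7 and less PAX7 RNA per cell cannot be told apart, and the same holds for the rises of PAX2 and PAX6.

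PAX3 (chromosome 2, 223066432 to 223163715, minus strand), the closest relative of PAX7 and a border gene in its own right, was all but absent. It had 1 count in each WT library and 0.5 and 0 in those labelled knockout, no more than the limit of 3 counts. The subgroup was therefore represented by PAX7 almost alone, at 5.06 and 3.74 CPM for both genes in WT and 0.665 and 0.366 CPM in the knockout-labelled libraries.

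PAX9 (chromosome 14, 37126773 to 37147011, plus strand), a gene of pharyngeal endoderm and tooth mesenchyme, was detected at a low level in every library, at 8.5 and 3 counts in WT and 10 and 7 in the knockout-labelled libraries. The genotypes overlapped, and the ratio of summed counts was 1.22 with a 95% counting interval of 0.548 to 2.79. No difference was detectable at this depth. PAX1 (chromosome 20), which acts in the sclerotome, had 1 count in a single knockout-labelled library.

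Compared per length, with CPM divided by the kilobases of the longest GENCODE coding transcript, PAX7 led in WT at 0.903 and 0.665 CPM per kb. PAX6 followed at 0.314 and 0.365, PAX2 at 0.175 and 0.246, and PAX9 at 0.105 and 0.0377. These 4 neighbours did not overlap between libraries, whereas PAX3 and PAX8 held at most 1 count in a WT library and had no order. In the knockout-labelled libraries PAX2 led at 1.69 and 1.73 CPM per kb, ahead of PAX6 at 1.0 and 0.788. PAX9, PAX7 and PAX8 came next at 0.0555 to 0.116 CPM per kb and overlapped one another. With the transcript whose span best matched the table row, the order of the means of PAX2, PAX6, PAX7 and PAX9 was the same in each genotype.

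**Figure D2:**
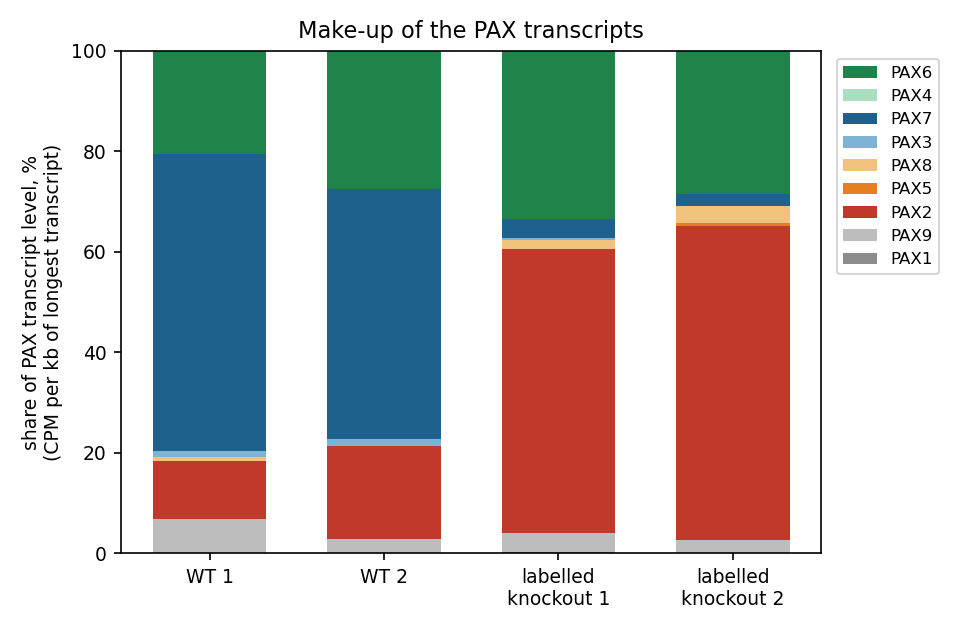
Share of each PAX gene in the summed PAX level of a library, in percent, from CPM per kb of the longest coding transcript. Each bar is 1 library. PAX7 made up 59.1% and 49.9% in WT and 3.86% and 2.40% in the knockout-labelled libraries, and PAX2 went from 11.5% and 18.5% to 56.4% and 62.5%.

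The family as a whole was not lost. Summed over the 9 genes, 154 and 134 counts fell on PAX genes in WT and 307.5 and 308 in the knockout-labelled libraries, or 8.61 and 7.59 CPM against 15.7 and 14.1 CPM. As a share of these counts, with intervals on rounded counts, PAX7 took 58.1% (Wilson 95% interval 50.5 to 65.9) and 48.5% (40.2 to 56.9) in WT against 4.07% (2.24 to 6.69) and 2.60% (1.32 to 5.04). PAX2 took 8.44% (5.0 to 13.9) and 13.4% (8.67 to 20.2) in WT against 44.4% (38.7 to 49.7) and 50.6% (45.1 to 56.2). PAX6 held 26.6% and 35.1% in WT and 46.3% and 40.7% in the knockout-labelled libraries, so its share moved less than its level. Intervals and limits cover counting error only.

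The genes around the 3 loci were read to see whether their neighbours moved with them. PAX7 had a neighbour that did. KLHDC7A, a kelch-domain gene that starts 150.1 kb upstream, fell from 5.21 ± 1.25 to 0.866 ± 0.103 CPM (SD, n = 2; log2 fold change -2.58, SE 0.27, edgeR adjusted p = 2.29e-06). Of 15 tested genes that start within 1000 kb of PAX7, 4 were higher and 5 lower, where 21.9% and 22.3% of all genes tested were, and KLHDC7A had the lowest log2 fold change of them. The nearest tested gene on the other side, ALDH4A1, was lower by a smaller amount, at 38.1 against 55.3 CPM (log2 fold change -0.54).

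Around PAX2, 6 of 26 tested genes were higher and 6 lower, near the shares over all genes tested (21.9% and 22.3%), with a median log2 fold change of -0.07. Its nearest neighbours, HIF1AN and FAM178A, had log2 fold changes of -0.10 and 0.26. TLX1, a homeobox gene 385.6 kb downstream, was at 0.268 ± 0.142 CPM in WT and 3.23 ± 0.715 CPM in the knockout-labelled libraries (SD, n = 2), and entered the test only through the latter.

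Around PAX6, 5 of 9 tested genes were higher and 0 lower, against 21.9% and 22.3% of all genes tested. WT1 and its antisense gene WT1-AS are both among the 5 and both start 624.2 kb upstream. Strand use in the counting was not given, so these are not independent genes in that count. ELP4, whose introns are known to hold PAX6 enhancers and which ends 267 bases from PAX6, did not pass, with 17.3 against 19.7 CPM (log2 fold change -0.18, edgeR adjusted p = 0.156). WT1, a kidney and mesothelium factor that starts 624.2 kb upstream, was higher at 65.8 and 93.5 CPM against 27.9 and 22.4 in WT (log2 fold change 1.67, edgeR adjusted p = 0.0249), which did not pass when WT replicate 2 was left out (adjusted p = 0.13) or the low-count filter was dropped (0.0726). The windows of 1000 kb were chosen after values had been seen.

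**Figure D3:**
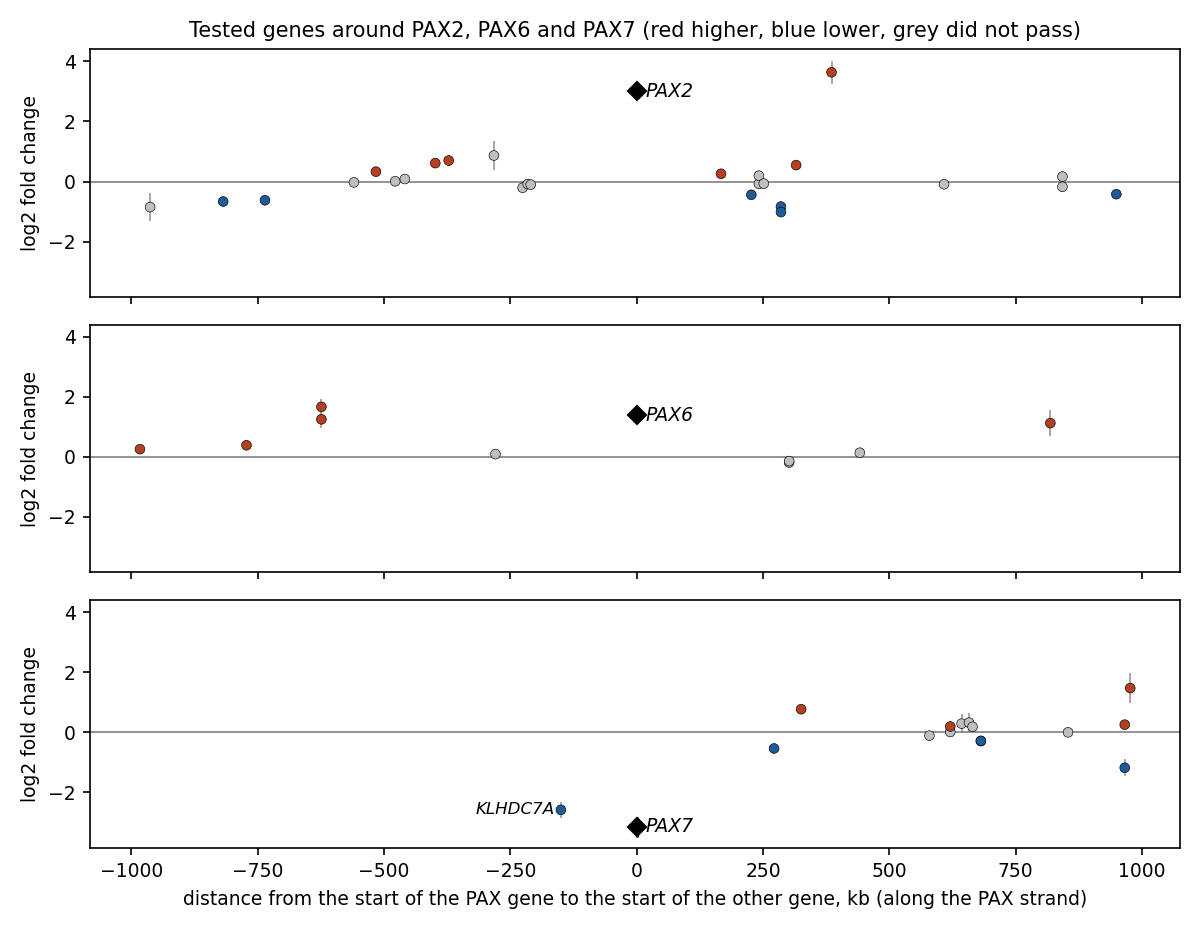
Log2 fold change (labelled knockout against WT) with standard error of each tested gene, against the distance in kb from the start of PAX2, PAX6 or PAX7 (black diamonds) to the start of that gene along the PAX strand. Red dots passed as higher, blue as lower, and grey did not pass. KLHDC7A, 150.1 kb upstream of PAX7, fell with it, and ELP4 next to PAX6 did not pass.

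The genes most like each changed PAX gene were taken by the distance between log2(CPM + 1) values centred over the 4 libraries. With 2 groups of 2 libraries this describes a shift and a spread only. PAX2 lay nearest to VAT1L (distance 0.155) and the zinc finger gene ZNF471 (0.176), and 9 genes lay within 0.25 of it. ZNF471 was all but absent in WT, at 0 and 0.0283 CPM, with a log2 fold change of 9.07. The 1 added before the log shrinks differences near 0, so this likeness does not extend to the fold change. PAX6 lay nearest to DPP10 (0.0252), with 75 genes within 0.25. PAX7 lay nearest to KIAA1644 (0.136) and the heme oxygenase gene HMOX1 (0.154), with 20 genes within 0.25.

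The proteins that PAX factors work with were mostly present in both genotypes. Among EYA and DACH genes and their partners, the network that acts with PAX in placodes, eye, ear and kidney, 8 of 12 could be tested, with 1 higher and 2 lower (median log2 fold change 0.10, against 0.00 over all genes tested). The coactivator genes EYA2 and EYA1 fell, from 28.0 and 35.5 to 3.22 and 3.02 CPM and from 85.3 and 110 to 30.9 and 27.4 CPM (edgeR adjusted p = 4.51e-10 and 9.61e-05), whereas DACH1 rose from 64.8 and 71.7 to 102 and 99.6 CPM (adjusted p = 6.63e-06). SIX4 and SIX5 did not pass, at 43.6 against 41.5 and 63.2 against 57.8 CPM.

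All 8 cofactor genes were tested, with 2 higher and 3 lower (median 0.23). PAXBP1, whose product binds PAX3 and PAX7, rose from 34.0 and 33.9 to 52.4 and 45.3 CPM (edgeR adjusted p = 0.000107). PAXIP1, whose product links PAX2 to histone methylation, did not pass, with 42.3 against 40.7 CPM. The Groucho corepressor genes TLE1, TLE3 and TLE4 were lower by 0.31 to 0.34 on the log2 scale, and the short Groucho gene AES rose from 102 and 102 to 153 and 159 CPM. TLE4, PAXIP1, SIX4 and SIX5 were named after their values were seen. The same holds in what follows for DLX3, EN1, FGF8, FOXD3, GATA3, GBX1, INSM1, SIX3, SIX6, SOX1, SOX10 and TFAP2C.

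PAX7 is a gene of the neural plate border and crest. The list counts that follow stand against 21.9% higher and 22.3% lower over all genes tested. A gene that entered the test through 1 genotype alone had its direction all but fixed, and several of these lists hold such genes. Some genes are in more than 1 list, GBX2, LHX1, EMX2, MITF and GATA3 among them, so the counts of different lists are not independent. Of 12 border genes tested of 15, 8 were lower and 2 higher (median -1.35). MSX1, a homeobox factor of the border, fell from 91.7 and 115 to 7.93 and 8.34 CPM (edgeR adjusted p = 3.64e-09). Of 11 crest genes tested of 14, 6 were lower, 1 was higher and 4 did not pass (median -0.45). The crest factors FOXD3 and SOX10 had too few counts to be tested. FOXD3 had 2 and 0 counts in WT and 0 and 0 in the knockout-labelled libraries, and SOX10 had 3 and 3 against 4 and 3.5. The endothelin receptor gene EDNRB fell from 36.9 and 42.4 to 0.819 and 0.527 CPM (adjusted p = 5.42e-12), and MITF, the pigment cell regulator that PAX3 is known to activate, from 6.73 and 6.12 to 3.58 and 4.24 CPM (adjusted p = 0.00488). The summed level of the crest list was 488 to 490 CPM in WT and 345 to 374 in the knockout-labelled libraries, and its part in the fall of PAX7 was not tested. The border gene GBX2 had 2.5 and 1 counts in WT, under the limit of 3, and 91 and 66 in the knockout-labelled libraries, through which alone it entered the test.

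PAX2 marks several tissues, and their other genes moved in different ways. At the midbrain-hindbrain boundary 3 of 7 tested genes (of 14) were higher and 2 lower (median 0.73). GBX2 was among those higher, and LMX1B fell from 77.0 and 93.0 to 1.43 and 1.35 CPM (edgeR adjusted p = 5.79e-12). GBX1, also higher, had 4 counts in each WT library and 15 in each of the others. Both GBX genes entered the test only through the knockout-labelled libraries. EN1 did not pass at 8.07 against 6.87 CPM, and FGF8, the signal of that boundary, had too few counts to be tested. In the otic and posterior placode list 1 of 7 tested genes (of 12) was higher and 4 were lower (median -0.49), with 2 higher without knockout replicate 1, and FOXI1 was at 0 in every library. FOXI3, an otic and epibranchial factor, fell from 5.06 and 4.79 to 1.51 and 0.870 CPM (adjusted p = 1.85e-05).

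In the kidney list 5 of 8 tested genes (of 11) were higher and 1 lower (median 1.04), where 21.9% and 22.3% of all genes tested were. LHX1, a nephron and interneuron factor, had 2.5 counts in WT against 344, a ratio of 118 with a counting interval of 40.6 to 1225, and GDNF had 2.5 counts in each WT library, under the limit of 3, and 25.5 and 43 in the others. Both entered the test only through the knockout-labelled libraries. The 1 that was lower, GATA3, did not pass without knockout replicate 2 (edgeR adjusted p = 0.0563). The summed kidney level was 221 to 250 CPM in WT and 258 to 276 in the knockout-labelled libraries, and its part in the rise of PAX2 was not tested. Of the 7 thyroid genes of the PAX8 context 0 could be tested, with a summed level of 0.281 to 1.19 CPM.

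Around PAX6, 3 of 5 tested eye field and forebrain genes (of 12) were higher and 1 lower (median 0.63), and 1 was higher without WT replicate 2. EMX2 rose from 1.23 and 1.28 to 5.17 and 9.48 CPM (edgeR adjusted p = 0.000135). SOX2 was at 51.7 and 31.4 against 11.7 and 10.9 CPM, and passed (edgeR adjusted p = 0.0399), but did not when WT replicate 1 (0.114) or 2 (0.248) was left out, with limma-voom (0.079) or with no low-count filter (0.0881). Of the eye field genes, RAX was at 0 in all libraries and SIX3 held at most 1 count in a library. LHX2 was at 3.66 and 2.81 CPM in WT and 5.17 and 4.95 in the knockout-labelled libraries (edgeR adjusted p = 0.0188), but did not pass with DESeq2 (0.135) or without WT replicate 2 (0.163) or knockout replicate 1 (0.0643). SIX6 had no count in WT and 5.5 in each knockout-labelled library. Of 5 lens genes tested of 10, 1 was higher and 3 lower (median -0.69), with 1 lower without knockout replicate 2 and 2 higher without WT replicate 2. FOXE3, the lens factor, fell from 3.55 and 2.86 to 0.461 and 0.618 CPM (adjusted p = 1.39e-05) while PAX6 rose. Of 4 hindbrain and spinal cord genes tested of 14, 3 were higher and 1 lower (median 2.71), and 5 were higher without WT replicate 1. Of these, LHX1 and SOX1 had at most 1.5 counts in a WT library and entered the test only through the knockout-labelled libraries. GDF7, the 1 that was lower, entered only through WT. Their directions were thus all but fixed by the filter, and the median rests on them. Summed, the hindbrain and spinal cord list was at 3.80 to 4.28 CPM in WT and 14.2 to 18.7 in the knockout-labelled libraries. NKX2-2 was at 0, and the part of this list in the rise of PAX6 was not tested.

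The remaining lists cover tissues of PAX1, PAX3, PAX4, PAX5 and PAX9, which were not detected or low here. Muscle progenitors are also a site of PAX7, and the pancreas a site of PAX6. Among paraxial mesoderm and muscle genes 1 of 4 tested (of 14) was higher and 3 were lower (median -0.99), with 1 lower without WT replicate 1, and MYF5 was at 0. The 3 that were lower were TBX6, NKX3-2 and MEOX1, with log2 fold changes of -1.32, -1.43 and -0.67. MEOX1 did not pass with DESeq2 (adjusted p = 0.122). FOXC2, the 1 that was higher, rose from 1.87 and 1.62 to 13.4 and 19.4 CPM (edgeR adjusted p = 1.78e-07). Among pharyngeal endoderm genes 2 of 5 tested (of 11) were higher and 1 lower (median 0.51), but without WT replicate 1 these were 1 and 0, and FOXN1 and NKX2-3 were at 0. Of 3 pancreatic endocrine genes tested of 12, 2 were higher and 0 lower (median 1.71), with 1 higher without knockout replicate 1, and INS and NKX2-2 were at 0 like PAX4. FOXA3 in the pharyngeal list and INSM1 in the pancreatic list, both higher, entered the test only through the knockout-labelled libraries. Their WT counts were 6 and 2.5 for FOXA3 and 4 and 2 for INSM1. The single B lymphocyte gene tested of 8, CD22, was lower, and MS4A1 and VPREB1 were at 0.

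**Figure D4:**
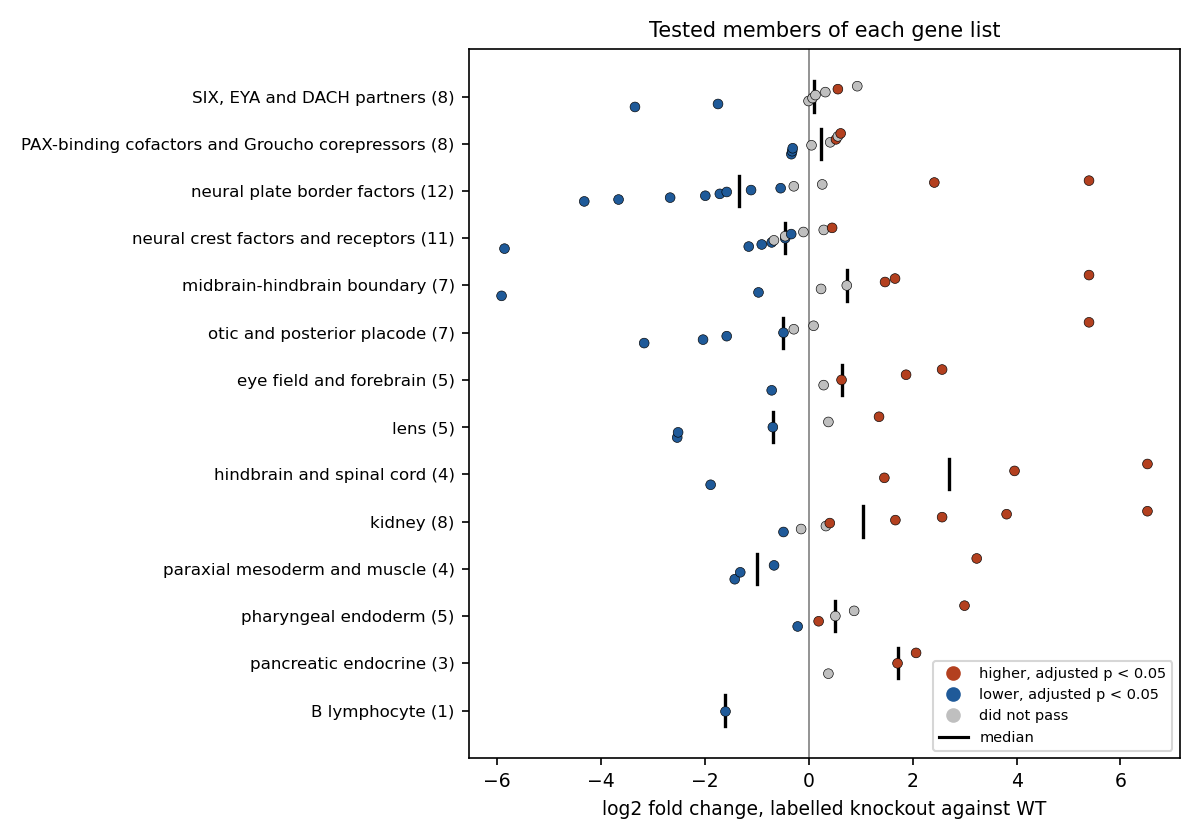
Log2 fold change (labelled knockout against WT) of the tested members of each gene list around the PAX family, with the number tested in brackets. Each dot is 1 gene (red higher, blue lower, grey did not pass) and the black bar is the list's median, at -1.35 for border genes, 1.04 for kidney and 2.71 for hindbrain and spinal cord. LHX1, SOX1, GBX2 and GDNF had at most 2.5 counts in a WT library, so their positions depend on how low counts are fitted.

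Across the series, the libraries held 17838204 to 21797850 counts, and TFAP2A itself was still transcribed, with 171 and 197 CPM in WT and 133 and 120 CPM in the knockout-labelled libraries (log2 fold change -0.54, edgeR adjusted p = 0.000124). TFAP2C, the gene in the titles, fell further, from 27.5 and 30.5 to 8.88 and 5.77 CPM (log2 fold change -1.99, edgeR adjusted p = 6.66e-06), and was not at 0 either. Gene-level counts cannot place these reads in exons and so check the label only in part. Of the genes known from non-neural ectoderm, GATA3 was at 156, 189, 127 and 119 CPM and DLX3 at 44.2, 49.7, 14.6 and 14.0 CPM in the 2 WT and then the 2 knockout-labelled libraries, and both passed as lower (log2 fold changes -0.49 and -1.71). The neural gene SOX1 was at 0.0559, 0.0567, 1.28 and 0.687 CPM.

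**Figure D5:**
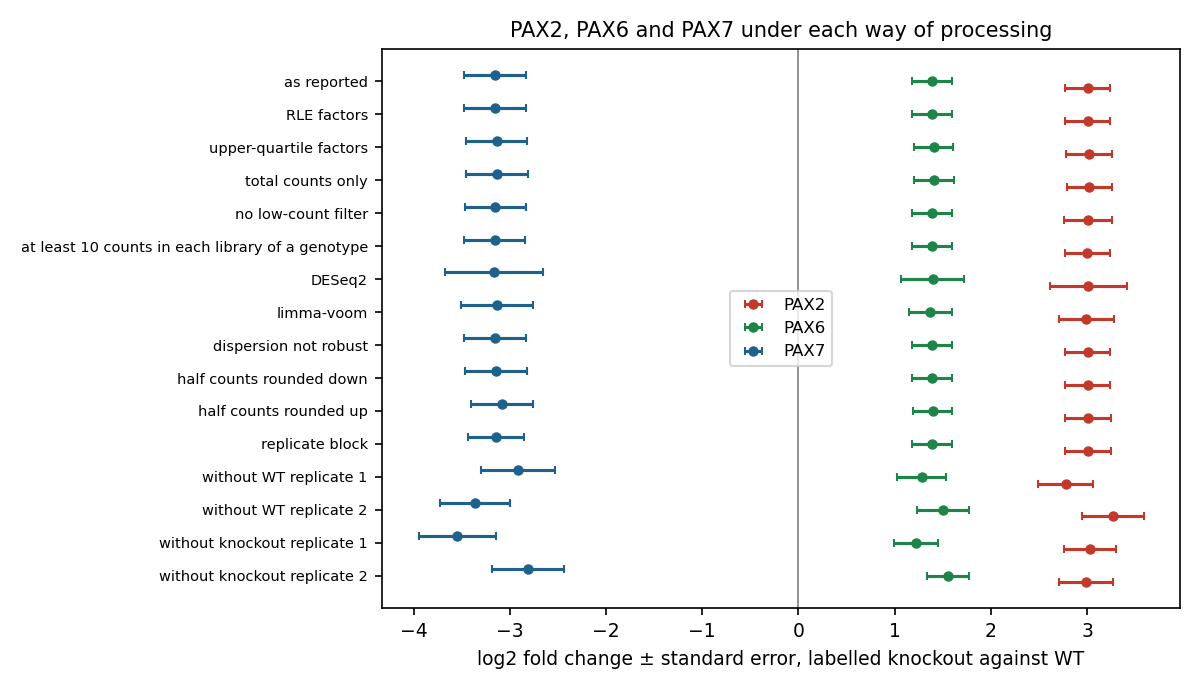
Log2 fold change with standard error of PAX2, PAX6 and PAX7 as reported and under each of 15 other ways of processing, listed on the vertical axis. PAX2 stayed between 2.78 and 3.27, PAX6 between 1.22 and 1.55, and PAX7 between -3.55 and -2.81.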

How the data were processed

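RNA was measured in 2 WT and 2 TFAP2A knockout libraries of H9 cells, grouped by the genotype label. Estimated counts per gene, deposited by the authors in steps of 0.5, were used, of which 37.0% were not whole, and the submitters' processing notes name hg38 as the build and DESeq2, HOMER and TopHat as tools. Only 4.35% of 22899 matched genes began within 2000 bases of their GRCh38 position, so gene positions are given as hg19. The annotation, and whether strand was used, was not given in the sources used here. Counts were rounded, filtered with filterByExpr (15643 genes left), scaled with TMM and tested with edgeR 4.0.16 (glmQLFit, robust, glmQLFTest) in R 4.3.3 on genotype alone, adjusted by Benjamini-Hochberg over all genes, threshold 0.05. The test was tested on simulated data. CPM use TMM-scaled totals. Alternatives used DESeq2 1.42.0, limma 3.58.1 (voom) and other scalings, filters, roundings and libraries. The PAX genes and the 15 lists around them were chosen with earlier results of these data known. Named genes were up to 4 members of a list with the largest change among those that passed without overlap and reached 1 CPM, or else the 2 most abundant, and the 2 genes nearest to each changed PAX gene. Some genes that the rule names are not reported here.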

Additional observations from a re-analysis of the deposited data

How the results depend on the processing

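PAX2, PAX6 and PAX7 kept their direction and passed under all 15 alternatives run. Their highest adjusted p over these alternatives was 5.68e-05, 0.00229 and 0.000126. The family's counts were 2 higher and 1 lower throughout. A rule or the text named 67 tested genes, the PAX genes included and WT1-AS, GBX1 and INSM1 left out. Of these, 57 kept their call, 9 lost it somewhere, 1 gained it and 0 reversed. Some list counts moved by over 1.5 times. Without the low-count filter, 2 genes of the EYA and DACH list, 2 lens genes and 5 hindbrain and spinal cord genes were higher. With DESeq2, 1 lens gene was lower, and 1 pharyngeal and 1 pancreatic gene were higher. Lens genes that were higher numbered 2 with total counts only, with limma-voom and with the replicate block. Over the fits that each left out 1 library, higher genes numbered 1 to 2 (otic), 1 to 3 (eye field), 1 to 2 (lens), 3 to 5 (hindbrain and spinal cord), 1 to 3 (pharyngeal) and 1 to 2 (pancreatic), and lower genes 1 to 2 (lens), 0 to 1 (kidney), 1 to 3 (paraxial mesoderm) and 0 to 1 (pharyngeal). The replicate numbers share no stated source: deviations of same-numbered libraries correlated at -0.05, and the replicate block changed no call of a PAX gene, with log2 fold changes of 3.01, 1.39 and -3.14. Depth limits the 6 untested PAX genes, at no more than 10 counts in a library.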
